A study of Mus musculus with 12 samples.

Results

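Myosin heavy chain and striated actin isoforms are the 5 genes Myh6, Myh7, Myh7b, Acta1 and Actc1, taken by symbol from a table of 17379 genes measured in mouse hearts. All 5 passed the filter on low counts. Expression was measured by mRNA sequencing in 12 libraries of hearts from C57BL mice aged 6 months, 3 libraries in each of 4 groups. The compound group carried HRCS96A heterozygously together with homozygous MYBPC3Δ25bp, the MYBPC3 deletion group was homozygous for MYBPC3Δ25bp alone, the HRC variant group was heterozygous for HRCS96A alone, and the nontransgenic group was labelled wild type. HRC binds calcium inside the sarcoplasmic reticulum, the calcium store of muscle cells, and MYBPC3 is the cardiac myosin-binding protein C that sits along the myosin filament. All compound and HRC variant mice were female, while the MYBPC3 deletion and nontransgenic groups each held 2 males and 1 female. The labels call the mice transgenic, and do not name the construct, its promoter or the heart chambers sampled.

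Each sarcomere pairs a thick filament of myosin heavy chains with a thin filament of actin, and both proteins come in isoforms that the heart exchanges during development and under load. In the adult mouse ventricle alpha myosin heavy chain (Myh6), the faster motor, prevails, and beta myosin heavy chain (Myh7), the slower motor of the fetal ventricle, returns in many forms of heart disease. Myh7b is a further sarcomeric heavy chain. Cardiac alpha-actin (Actc1) is the main actin of the adult heart, and skeletal alpha-actin (Acta1) is an isoform of the fetal and the overloaded rodent heart. The exchange is described as part of the fetal gene programme and is controlled by thyroid hormone, by serum response factor and its cofactors, and by microRNAs that lie inside the myosin genes themselves.

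On GRCm38.p6, the build named in the submitters' processing notes, the deposited table places Myh6 (gene 17888) at chr14:54941921-54968017 and its neighbour Myh7 (gene 140781) at chr14:54970684-54994549. Myh7b (gene 668940) lies at chr2:155611073-155634307, Actc1 (gene 11464) at chr2:114047282-114053863 and Acta1 (gene 11459) at chr8:123890942-123894775. The table lists both cardiac heavy chain genes on the plus strand, whereas the GENCODE annotation of the same build has them on the minus strand. In that annotation the longest coding transcripts have 39 exons for Myh6, 41 for Myh7 and 42 for Myh7b, and 7 for each actin gene. Each heavy chain gene holds a microRNA in an intron, intron 29 of Myh6, intron 31 of Myh7 and intron 19 of Myh7b. Their mature sequences from RefSeq (GRCm38.p6) are shown because they link the 3 genes to isoform control, with the seed (bases 2 to 8) in capitals.
mmu-miR-208a-3p (in Myh6): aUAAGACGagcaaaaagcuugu
mmu-miR-208b-3p (in Myh7): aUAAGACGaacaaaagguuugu
mmu-miR-499-5p (in Myh7b): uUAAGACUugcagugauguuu
The microRNAs of Myh6 and Myh7 share all 7 seed letters, and that of Myh7b shares 6 of them. MicroRNA levels were not measured in these mRNA libraries.

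The actin pair is the one whose ratio differed most between groups, so the 250 bases before the RefSeq start of each gene are shown (GRCm38.p6, gene strand, which is minus for both). Capitals mark the CArG box, the binding sequence of serum response factor, and in Acta1 also CATTCC, the M-CAT core bound by TEAD factors, and TATAAA, the TATA box.
Acta1, chr8:123894776-123895025: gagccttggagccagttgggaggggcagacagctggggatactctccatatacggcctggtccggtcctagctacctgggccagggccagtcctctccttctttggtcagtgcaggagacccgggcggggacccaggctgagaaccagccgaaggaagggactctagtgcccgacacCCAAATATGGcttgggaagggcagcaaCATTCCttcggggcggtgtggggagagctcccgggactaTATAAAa
Actc1, chr2:114052876-114053125: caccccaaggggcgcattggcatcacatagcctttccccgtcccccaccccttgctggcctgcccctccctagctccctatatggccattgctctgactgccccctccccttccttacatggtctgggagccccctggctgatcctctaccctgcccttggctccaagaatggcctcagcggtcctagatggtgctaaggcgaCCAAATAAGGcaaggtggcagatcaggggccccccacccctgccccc
The Actc1 window lies inside the span that the deposited table gives, since the RefSeq start is further downstream. Both windows hold 1 CArG box, which 1.47% of 32851 RefSeq windows of this length hold on either strand. CATTCC and TATAAA, searched on both strands, occur in the Acta1 window only, and in 12.6% and 12.4% of all windows. The marked motifs overlap with none of the others searched. A letter match is a description and no evidence of binding.

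In every library the isoforms kept one order of abundance per length, measured as TPM (transcript abundance scaled to transcript length and library): Actc1, Myh6, Acta1, Myh7 and Myh7b. Over the 12 libraries Actc1 ranged from 14589 to 22476 TPM and Myh6 from 4216 to 8564 TPM. In the mean of the nontransgenic hearts Actc1 ranked 3 and Myh6 ranked 13 among all genes. Acta1 ranged from 185 to 952 TPM, Myh7 from 12.8 to 71.2 TPM and Myh7b from 6.48 to 19.3 TPM. The ranges of Myh7 and Myh7b overlapped, although Myh7 was above Myh7b in 12 of 12 libraries, by 1.44 to 7.02 times. Together the 5 genes took 3.23% to 4.76% of all counts.

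Total counts ranged from 15615182 to 20581197 per library. The 8 cardiomyocyte markers summed to 35972 to 57038 CPM (counts scaled to library size), and the skeletal heavy chains Myh1 and Myh2 had at most 6 counts in any library. Markers of atrial muscle did not follow the groups evenly. Their sum over 14 genes was 374, 344 and 699.5 CPM in the compound libraries, 7044, 4154 and 6097 for the MYBPC3 deletion group, 9883, 3428 and 407 for the HRC variant group and 4022, 10113 and 6519 in nontransgenic hearts. All compound libraries and HRC variant replicate 3 therefore lay below the other 8. B-cell markers summed to 87.6 CPM in replicate 2 of the MYBPC3 deletion and to 55.1 CPM in replicate 2 of the nontransgenic group, against at most 9.73 in the other 10 libraries. In bulk tissue, fewer cells of a type and less RNA per cell cannot be told apart, and nothing in the labels says whether each library is a separate mouse, so the p-values measure the spread between libraries.

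Alpha myosin heavy chain was lowest in hearts with the MYBPC3 deletion alone. Myh6 had 18527, 18523 and 21464 CPM with the deletion, against 29653, 25353 and 29089 CPM in nontransgenic hearts. The 3 deletion libraries lay below all 3 nontransgenic ones, as for 5.50% of the 13849 tested genes, and below the other 9 libraries as well, as for 1.34%. Both groups held 2 males and 1 female, and the means were 19504 ± 1697 CPM with the deletion and 28032 ± 2337 CPM in nontransgenic hearts (SD, n = 3 each). The fitted log2 difference was -0.53 (SE 0.15, edgeR adjusted p = 0.384, unadjusted p = 0.00346). DESeq2 on the same model gave -0.54 with an adjusted p of 0.00297, so the call depends on the tool, and edgeR does not call it. In TPM the separation was narrower, with 4914, 4216 and 6477 TPM in the deletion hearts and 6518, 7444 and 8439 TPM in nontransgenic hearts. HRC variant replicate 1, at 6282 TPM, lay within the deletion range. Within a gene, CPM and TPM differ in how libraries are scaled, so the width of the separation depends on that scaling. In TPM 2.87% of tested genes had all deletion libraries below all nontransgenic ones. Most endothelial markers were also lower in this comparison: 5 of 6 had lower fitted values with the deletion (median log2 difference -0.16, 2 at an unadjusted p under 0.05, 0 called by edgeR and 1 by DESeq2). Their sum was 757 to 906 CPM in deletion hearts and 923 to 1073 CPM in nontransgenic hearts. The lower values were not particular to the deletion. Against nontransgenic hearts, 5 of 6 were lower with the HRC variant (median -0.19) and 4 of 6 in compound hearts (median -0.22). Myh6 differed by -0.26 and -0.15 in those comparisons. The endothelial receptor gene Flt1, named here after its values were seen, had 54.6 to 89.9 CPM in deletion hearts and 115 to 137 CPM in nontransgenic hearts. The part of endothelial content in the Myh6 result was not tested.

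Long transcripts had lower fitted values than short ones in the same comparison. Over 13678 tested genes with a length, the rank correlation between longest transcript and the log2 difference of the MYBPC3 deletion from nontransgenic hearts was -0.24, a description across genes that share the same libraries. The 1747 genes of 5 to 7 kb had a median log2 difference of -0.077 (quartiles -0.24 and 0.094), and 4.52% of them were lower than Myh6, whose longest transcript has 6113 bases. The part of this trend in the Myh6 result was not tested.

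Among carriers of the HRC variant, Myh6 was not lower in hearts that also had the deletion. Myh6 had 26389, 25041 and 29686 CPM in compound hearts, against 22766, 26003 and 26230 CPM in hearts with the HRC variant alone. The log2 difference between these groups, which hold only females, was 0.11 (SE 0.15, edgeR adjusted p = 0.965). The interaction, here the deletion's log2 difference with the HRC variant minus that without it, was 0.64 (SE 0.21, edgeR adjusted p = 0.544) and 0.65 by DESeq2 (adjusted p = 0.0167). The difference without the variant comes from groups of 2 males and 1 female, and that with it from females only. The interaction therefore cannot be told apart from a deletion effect that differs by sex. In females only, with 1 deletion and 1 nontransgenic library, the interaction was 0.54. Compound hearts lay above the MYBPC3 deletion hearts without overlap, as did 11.5% of tested genes, with a fitted log2 difference of 0.38 (SE 0.18, edgeR adjusted p = 0.862). DESeq2 on the same model, with the sex term, gave 0.39 with an adjusted p of 0.430. In the authors' deposited table the same pair differs by 0.49 with a q of 0.00592, where 4.24% of genes have a q under 0.05. DESeq2 with these 2 groups alone and no sex term gave 0.48 with an adjusted p of 0.00638, calling 6.14% of genes. The compound hearts of this pair are all female, whereas the deletion group holds 2 males and 1 female. The interaction also had a length trend, with a rank correlation of 0.24 and a median of 0.094 for genes of 5 to 7 kb, of which 94.6% lay below Myh6, and 5 of 6 endothelial markers had positive interactions (median 0.20, 0 called by edgeR and 1 by DESeq2).

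**Figure D1:**
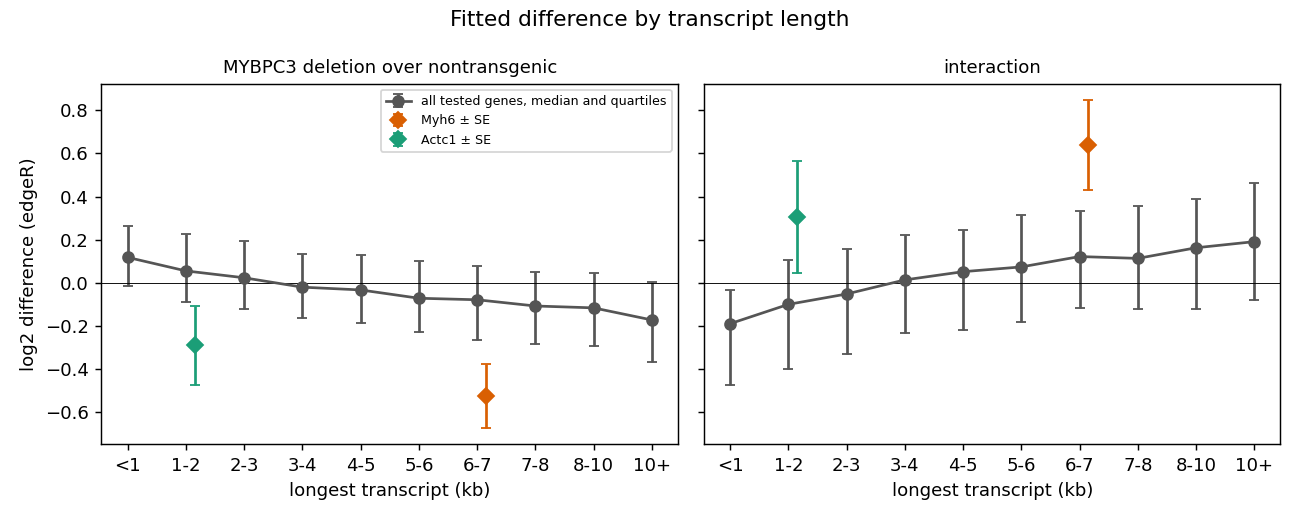
Fitted log2 difference (edgeR) against longest transcript length in kb for the MYBPC3 deletion over nontransgenic hearts (left) and the interaction (right). Grey points are medians of all tested genes with quartiles as bars, and diamonds are Myh6 and Actc1 with SE. Myh6 lies at -0.53 on the left, where the 5 to 7 kb genes have a median of -0.077, and at 0.64 on the right, where they have a median of 0.094.

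Beta myosin heavy chain showed no pattern by genotype beyond the spread between libraries. Myh7 had 156, 77.6 and 131 CPM in compound hearts and 159.9, 128 and 42.2 CPM with the MYBPC3 deletion. It had 142, 112 and 78.1 CPM with the HRC variant and 71.3, 61.3 and 245 CPM in nontransgenic hearts. The highest library of all was the female nontransgenic heart and the lowest was the female deletion heart, so the groups overlapped throughout. Fitted log2 differences from nontransgenic hearts were -0.24 (SE 0.74) for the compound group, 0.037 (SE 0.75) for the MYBPC3 deletion and -0.37 (SE 0.74) for the HRC variant, with edgeR adjusted p-values of 0.994, 0.995 and 0.986. These small differences changed sign under limma-voom.

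Counts of the cardiac heavy chains are partly uncertain because the genes are near copies. Their coding sequences are 91.4% identical, and 12.0% of the 100-base windows of Myh7 occur letter for letter in Myh6, with a longest shared run of 245 bases. Estimated counts were not whole in 12 of 12 libraries for Myh6 and for Myh7, but were whole in all 12 for Myh7b, which shares no such window with Myh7. The labels do not say how reads shared by the genes were divided. Acta1 and Actc1, 86.3% identical in their coding sequences, share no window of that length, and 2 and 1 of the 12 libraries had fractional counts.

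Myh7b, the third heavy chain, was higher in compound hearts than in either group without the HRC variant. It had 41.1, 49.7 and 51.2 CPM in compound hearts, against 33.8, 23.1 and 36.6 CPM in nontransgenic hearts. The libraries did not overlap, a pattern that 8.79% of tested genes show in this direction, and the fitted log2 difference was 0.55 (SE 0.32, edgeR adjusted p = 0.847). Hearts with the MYBPC3 deletion had 28.0, 30.1 and 24.9 CPM, also below every compound heart, as for 11.5% of tested genes. The log2 difference between compound and deletion hearts was 0.72 (SE 0.34, edgeR adjusted p = 0.862). The authors' deposited table gives 0.79 with a q of 8.22e-05 for this pair, where 4.24% of genes have a q under 0.05. For compound over nontransgenic hearts it gives 0.60 with a q of 0.0755. DESeq2 on the same model as edgeR, with the sex term, gave adjusted p-values of 0.629 and 0.822 for these pairs. For compound over deletion hearts, DESeq2 with 2 groups alone and no sex term gave 0.79 (adjusted p = 6.90e-05), calling 6.14% of genes. HRC variant hearts spread widely, at 28.6, 65.7 and 56.9 CPM, and overlapped with the other 3 groups. The log2 difference was 0.64 for the HRC variant over nontransgenic hearts (SE 0.32, edgeR adjusted p = 0.821) and -0.091 for compound over HRC variant hearts (SE 0.26, edgeR adjusted p = 0.991). The 5 libraries with the highest Myh7b were therefore all female carriers of the HRC variant, and sex and the variant cannot be told apart in the comparisons with males.

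Skeletal alpha-actin had its lowest mean in compound hearts. Acta1 had 151, 172 and 248 CPM in compound hearts, against 611, 393 and 773 CPM in nontransgenic hearts. The groups did not overlap, as for 10.02% of tested genes in this direction, and the means were 190.4 ± 51.2 CPM in compound hearts and 592 ± 191 CPM in nontransgenic hearts (SD, n = 3 each). The fitted log2 difference was -1.47 (SE 0.60, edgeR adjusted p = 0.745, unadjusted p = 0.0376), DESeq2 on the same model gave an adjusted p of 0.663, and without nontransgenic replicate 3, the only female of its group, the edgeR difference became 0.16. The male nontransgenic hearts, at 611 and 393 CPM, still lay above all compound hearts in that case. In that fit only the MYBPC3 deletion group held both sexes, so it alone set the sex term. With these 2 groups alone and no sex term DESeq2 gave -1.64 with an adjusted p of 1.14e-08, close to the authors' deposited table, which has -1.63 with a q of 4.65e-09. In those lists 3.44% and 2.43% of genes were called. EdgeR over all 4 groups without a sex term also gave -1.64, with an adjusted p of 0.388. The other groups overlapped with the compound range, at 288, 676 and 165 CPM in MYBPC3 deletion hearts and 399, 239 and 167 CPM in HRC variant hearts. In TPM, HRC variant hearts reached at most 465 and nontransgenic hearts had at least 489, as for 1.74% of tested genes in this direction. In CPM these groups overlapped, at 399 and 393 CPM, so the separation depends on how libraries are scaled. Of the 8 tested markers of fast skeletal muscle, where Acta1 is the main actin, 6 had lower and 2 higher fitted values in compound than in nontransgenic hearts (median log2 difference -0.96, 4 at an unadjusted p under 0.05, 0 called by edgeR or DESeq2). Most of these genes lie near the floor: apart from Mybpc2, Cacna1s and Atp2a1, no listed marker exceeded 3.07 CPM in any library. The sum of the listed markers, 55.9 to 59.9 CPM in compound hearts and 42.5 to 79.8 CPM in nontransgenic hearts, is carried by Mybpc2 and Cacna1s. Of these, Cacna1s was higher, at 30.3 to 33.7 CPM in compound hearts and 11.6 to 21.7 CPM in nontransgenic hearts. The part of skeletal muscle RNA in the Acta1 result was not tested.

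Acta1 was lower than in nontransgenic hearts in each mutant group by fitted value, with no edgeR call. The log2 difference was -0.75 with the MYBPC3 deletion (SE 0.56, edgeR adjusted p = 0.796), between -1.39 and -0.050 when single libraries were left out, and -0.97 with the HRC variant (SE 0.60, edgeR adjusted p = 0.899). The female nontransgenic heart had the highest level of all libraries and the female deletion heart one of the lowest, so 1 library per group carries the separation of sex from genotype. Without nontransgenic replicate 3 the fitted compound difference became 0.16 and that of the HRC variant 0.65, both with an edgeR adjusted p that rounds to 1.0. Between the groups that hold only females, compound over HRC variant, the difference was -0.50 (SE 0.53, edgeR adjusted p = 0.955), and -0.099 without HRC variant replicate 1.

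Libraries low in atrial markers were among those low in Acta1 and high in Myh7b. The 4 libraries with an atrial sum of 699.5 CPM or less, the 3 compound hearts and HRC variant replicate 3, had 151 to 248 CPM of Acta1 and 41.1 to 56.9 CPM of Myh7b. HRC variant replicate 1, with an atrial sum of 9883 CPM, had 399 CPM of Acta1 and 28.6 CPM of Myh7b. Low Acta1 also occurred with a high atrial sum, in MYBPC3 deletion replicate 3 at 165 CPM and in HRC variant replicate 2 at 239 CPM. HRC variant replicate 2, with an atrial sum of 3428 CPM, also had high Myh7b, at 65.7 CPM. All 14 atrial markers had lower fitted values in compound than in nontransgenic hearts, with a median log2 difference of -3.38 and 10 of them at an unadjusted p under 0.05. All 7 ventricular markers had higher ones, with a median of 0.44, 1 at an unadjusted p under 0.05 and 0 called by edgeR or DESeq2. Their sums overlapped, at 26564 to 28354 CPM in compound hearts and 19131 to 31910 CPM in nontransgenic hearts. The part of chamber content in the Acta1 and Myh7b results was not tested.

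**Figure D2:**
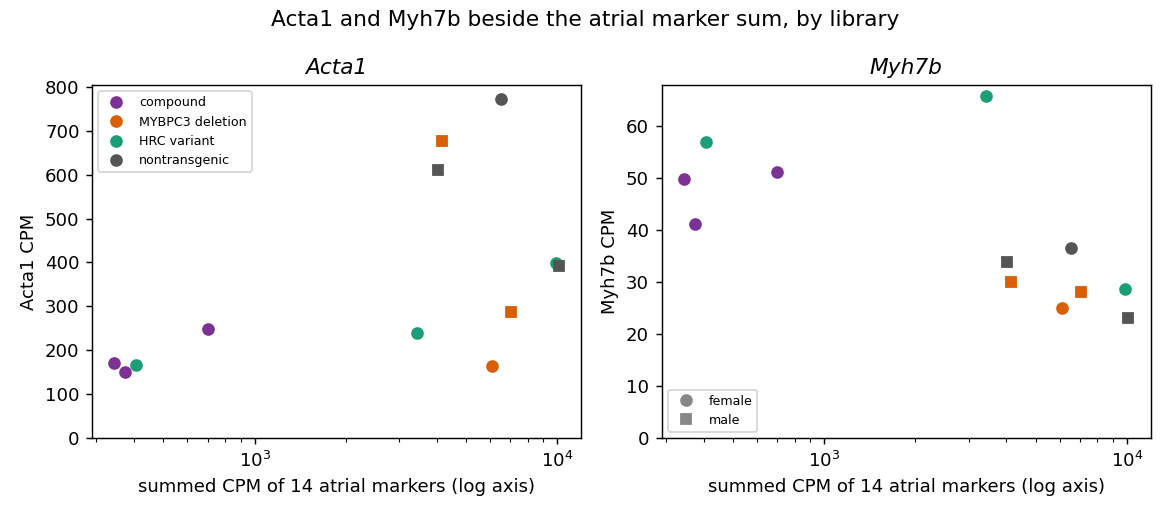
Acta1 (left) and Myh7b (right) in CPM against the summed CPM of 14 atrial markers on a log axis, with 1 point per library, coloured by group, circles for females and squares for males. The 3 compound hearts and HRC variant replicate 3 stand at atrial sums of 344 to 699.5 CPM, with Acta1 at 151 to 248 CPM and Myh7b at 41.1 to 56.9 CPM.

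Cardiac alpha-actin, the most abundant of the 5 transcripts, overlapped between all groups in CPM, and in TPM between all but MYBPC3 deletion and nontransgenic hearts. Actc1 had 13227, 13924 and 18039 CPM in compound hearts and 12821, 15272 and 13801 CPM with the MYBPC3 deletion. It had 14251, 13314 and 17245 CPM with the HRC variant and 20795, 15048 and 15549 CPM in nontransgenic hearts. Nontransgenic replicate 1 was the highest library and also had the highest cardiomyocyte marker sum, at 57038 CPM. In TPM, MYBPC3 deletion hearts had 14589, 14901 and 17903, all below the 19549, 19011 and 19423 of nontransgenic hearts, as for 2.87% of tested genes. This separation depends on how libraries are scaled, since the groups overlapped in CPM. Compound hearts, at 16400 to 22476 TPM, and HRC variant hearts, at 16850 to 20473 TPM, overlapped with nontransgenic hearts. Fitted log2 differences from nontransgenic hearts were -0.11 (SE 0.23) for the compound group, -0.29 (SE 0.18) for the MYBPC3 deletion and -0.12 (SE 0.23) for the HRC variant, with edgeR adjusted p-values of 0.992, 0.728 and 0.986.

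**Figure D3:**
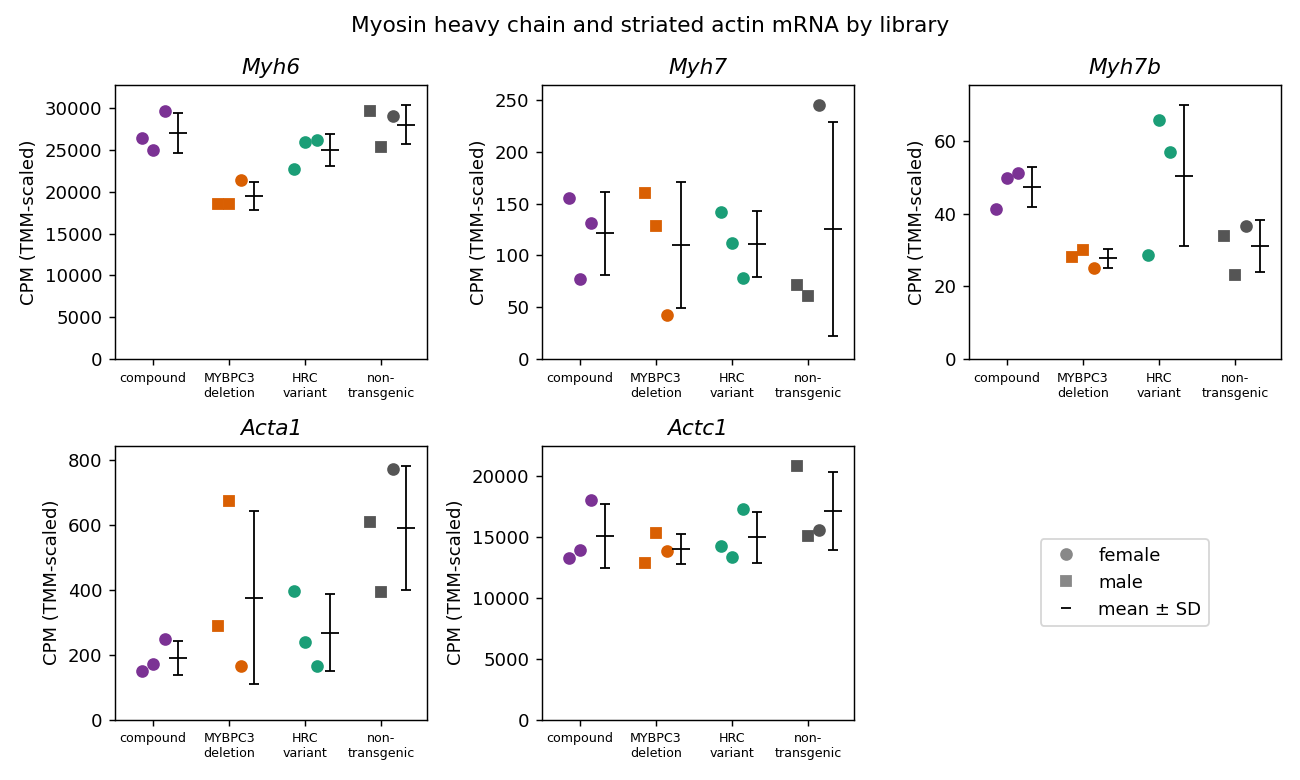
CPM of the 5 genes in each of the 12 libraries, with compound, MYBPC3 deletion, HRC variant and nontransgenic hearts from left to right, circles for females, squares for males and black bars for the mean and SD. Myh6 is lowest in the 3 deletion hearts (18523 to 21464 CPM), and Acta1 in compound hearts (151 to 248 CPM) lies below nontransgenic hearts (393 to 773 CPM).

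Over the whole table edgeR called 0 genes at an adjusted p under 0.05 in each of the 7 contrasts fitted, that is 0% of 13849, and so no member. At an unadjusted p under 0.05 it had 1 of 5 members and 6.36% of all genes for compound against nontransgenic hearts, 1 and 8.16% for the MYBPC3 deletion, 0 and 6.23% for the HRC variant, and 1 and 8.54% for the interaction. DESeq2 shares are over the genes to which it gave an adjusted p, a number that differs by contrast. It called 0 members and 0.275% of 13843 genes for compound against nontransgenic hearts, and 1 and 0.595% of 12769 for the MYBPC3 deletion. For the HRC variant it called 0 and 0.181% of 13843, and for the interaction 1 and 0.864% of only 5790. By fitted sign 4 of 5 members were lower in each of the 3 comparisons with nontransgenic hearts, with median log2 differences of -0.15 in compound hearts, -0.29 in MYBPC3 deletion hearts and -0.26 in HRC variant hearts, where the medians of all tested genes were -0.0019, -0.0050 and 0.0047. Because the 3 comparisons share the nontransgenic libraries, their likeness is no result.

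**Figure D4:**
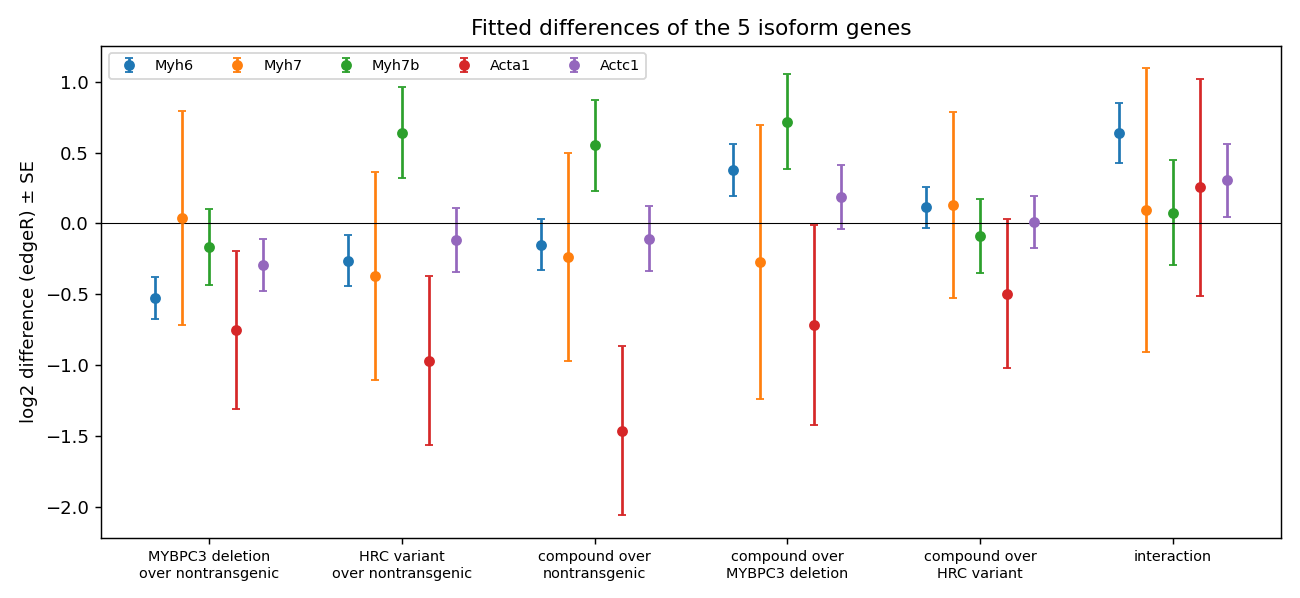
Fitted log2 differences (edgeR) with SE for the 5 genes in 5 pairwise comparisons and the interaction, the group named first over the second. Acta1 reaches -1.47 for compound over nontransgenic hearts, Myh6 is at -0.53 for the MYBPC3 deletion over nontransgenic hearts, and Myh7 has the widest bars.

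The isoform ratios were tested over carriers and non-carriers of each alteration, permuting libraries within the genotype of the other gene. Beta heavy chain made up 0.446 ± 0.140% of cardiac heavy chain TPM in compound hearts, 0.578 ± 0.341% in MYBPC3 deletion hearts, 0.449 ± 0.162% in HRC variant hearts and 0.439 ± 0.344% in nontransgenic hearts (SD, n = 3 each). In single libraries the share lay between 0.197%, in a deletion heart, and 0.853%, in another deletion heart, so it stayed under 1% throughout. The log2 ratio of Myh7 to Myh6 was higher by 0.21 in carriers of the deletion than in non-carriers (exact permutation test with 400 arrangements, two-sided p = 0.715, adjusted over 4 tests 0.953). It was higher by 0.031 in carriers of the HRC variant than in non-carriers (exact permutation p = 0.970, adjusted 0.970). Neither difference exceeded the spread between libraries.

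Skeletal alpha-actin made up 1.22 ± 0.114% of striated actin TPM in compound hearts, 2.50 ± 1.53% in MYBPC3 deletion hearts, 1.79 ± 0.870% in HRC variant hearts and 3.33 ± 1.17% in nontransgenic hearts (SD, n = 3 each). In single libraries it was 1.11%, 1.20% and 1.34% in compound hearts, against 2.81%, 2.51% and 4.67% in nontransgenic hearts, without overlap. Deletion hearts had 2.17%, 4.18% and 1.17%, and HRC variant hearts 2.68%, 1.74% and 0.947%. The log2 ratio of Acta1 to Actc1 was lower by 0.93 in HRC variant carriers than in non-carriers, the smallest p of the 4 tests (exact permutation p = 0.04, adjusted 0.16). The difference was -0.99 without the deletion and -0.87 with it. Deletion carriers differed from non-carriers by -0.50 (exact permutation p = 0.195, adjusted 0.39), and by -0.74 to -0.27 when single libraries were left out. The HRC variant result did not pass after adjustment, and it passed (difference -1.16, adjusted p = 0.04) without MYBPC3 deletion replicate 3. All 6 HRC variant carriers were female, while 4 of the 6 non-carriers were male, and in females only, with 2 non-carriers, the difference was -0.75 (exact permutation p = 0.375, with 16 arrangements, too few to reach 0.05).

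Myh7b made up 0.169 ± 0.0208% of the summed TPM of the 3 heavy chains in compound hearts, 0.137 ± 0.0224% in MYBPC3 deletion hearts, 0.189 ± 0.0617% in HRC variant hearts and 0.105 ± 0.0165% in nontransgenic hearts (SD, n = 3 each). This share was not tested.

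**Figure D5:**
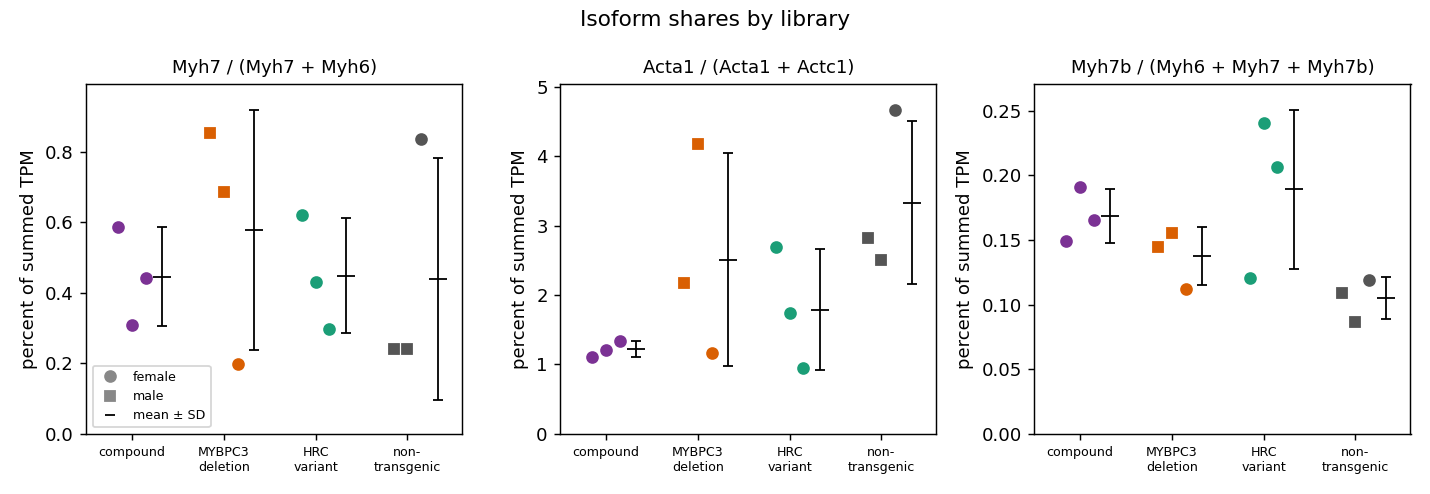
Percent of summed TPM taken by Myh7 (of Myh7 and Myh6), Acta1 (of Acta1 and Actc1) and Myh7b (of the 3 heavy chains) in each library, with groups from compound on the left to nontransgenic on the right, circles for females, squares for males and bars for the mean and SD. The Acta1 share is 1.11% to 1.34% in compound hearts and 2.51% to 4.67% in nontransgenic hearts, while the Myh7 share stays under 1% in all libraries.

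Among 21 thick and thin filament partners 14 had lower and 7 higher fitted values with the MYBPC3 deletion than in nontransgenic hearts (median log2 difference -0.025, all tested genes -0.0050), 0 passed edgeR and 1 passed DESeq2. That gene was Mybpc3, the gene that the label of this group names, at 2638 ± 245 CPM with the deletion and 4012 ± 758 CPM in nontransgenic hearts (SD, n = 3 each), a log2 difference of -0.60 (SE 0.16, edgeR adjusted p = 0.357, DESeq2 adjusted p = 0.0253). A count per gene need not register a deletion of 25 bp, so this level does not check the labels. Unc45b, the chaperone that folds myosin heads in striated muscle, differed by -0.41 in the same comparison (SE 0.14, edgeR adjusted p = 0.477). Of the 4 tested other heavy chains 3 had lower values with the deletion, and the non-muscle chains Myh14 and Myh9 differed by -0.28 (SE 0.15) and -0.20 (SE 0.13), with edgeR adjusted p-values of 0.660 and 0.723.

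The myosin light chain list held 12 genes: light chains, which bind the neck of the heavy chains, and the light chain kinase gene Mylk3. Of these 12 genes 8 had lower and 4 higher fitted values in compound than in nontransgenic hearts, with 0 calls by edgeR or DESeq2 (median log2 difference -0.16, all tested genes -0.0019). The fetal and atrial chain Myl4 averaged 32.7 ± 41.3 CPM in compound hearts and 1118 ± 549 CPM in nontransgenic hearts, a log2 difference of -4.84 (SE 2.06, edgeR adjusted p = 0.781). The atrial chain Myl7 differed by -4.73 (SE 2.26, edgeR adjusted p = 0.817) and Sln, the atrial calcium pump inhibitor sarcolipin, by -4.65 (SE 2.17, edgeR adjusted p = 0.809). Myl1, a light chain of fast skeletal and fetal muscle, differed by -1.86 (SE 0.61, edgeR adjusted p = 0.667). The ventricular chain Myl2 differed by 0.49 (SE 0.28, edgeR adjusted p = 0.841), and by 0.085 without a sex term.

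The fetal gene programme list, 14 genes that include both atrial light chains, had 10 lower and 4 higher fitted values in compound than in nontransgenic hearts (median log2 difference -0.71, all tested genes -0.0019), with 0 calls by edgeR and 1 by DESeq2. That gene was Nppa, which encodes atrial natriuretic peptide, at 165 ± 78.3 CPM in compound hearts and 3503 ± 1434 CPM in nontransgenic hearts (log2 difference -4.52, SE 1.21, edgeR adjusted p = 0.630, DESeq2 adjusted p = 0.0103). Nppa is also one of the atrial markers above, and it ranged from 190 to 4465 CPM in HRC variant hearts. The part of chamber content in the Nppa difference was not tested. Nppb, which encodes B-type natriuretic peptide, differed by 1.44 with the HRC variant from nontransgenic hearts (SE 0.46, edgeR adjusted p = 0.683). Other actins, 4 genes, had 3 higher and 1 lower fitted values with the HRC variant, and the cytoskeletal actins Actb and Actg1 differed by 0.75 (SE 0.30) and 0.53 (SE 0.24), with edgeR adjusted p-values of 0.728 and 0.797. Without a sex term the Nppb, Actb and Actg1 differences were 0.57, 0.18 and 0.16.

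Genes of the thyroid hormone axis, of which 15 were tested, had 11 lower and 4 higher fitted values with the MYBPC3 deletion than in nontransgenic hearts (median log2 difference -0.12, all tested genes -0.0050), 0 calls by edgeR and 1 by DESeq2. That gene was Thrsp, a thyroid hormone responsive gene of lipid synthesis, at -0.88 (SE 0.22, edgeR adjusted p = 0.346, DESeq2 adjusted p = 0.0361). Thra, the main thyroid hormone receptor of the heart, differed by 0.29 with the HRC variant from nontransgenic hearts (SE 0.15, edgeR adjusted p = 0.832), and Med13, a Mediator subunit and target of miR-208a, by 0.16 with the MYBPC3 deletion (SE 0.15, edgeR adjusted p = 0.845). Of 34 transcriptional regulators of the isoforms 22 had lower and 12 higher values with the deletion (median log2 difference -0.085), with 0 calls by edgeR and 1 by DESeq2. That was Smarca4 (Brg1), a chromatin remodelling enzyme reported to repress Myh6 in the stressed mouse heart, at -0.51 (SE 0.12, edgeR adjusted p = 0.340, DESeq2 adjusted p = 0.0124). Hopx, a homeodomain protein without DNA binding that restrains serum response factor, differed by 0.48 in compound from nontransgenic hearts (SE 0.15, edgeR adjusted p = 0.649), and by 0.24 without a sex term.

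Across the 12 libraries the members did not share one pattern. Pearson correlations of log2 CPM between members ran from -0.40 for Myh7b with Acta1 to 0.57 for Myh6 with Actc1, and Myh6 with Myh7 was at 0.03. The genes most like Myh6 were Smarca4 (0.97), Snd1 (0.96), Flt1 (0.95), Adgrf5 (0.94) and Ppp6r1 (0.94). Among those most like Actc1 were Timm44 (0.94), Actn2 (0.93), C1qbp (0.90) and Fkbp4 (0.89). Most like Myh7b were Mapt (0.93), Srrm4, Gfra1, Armc2 and Map3k1 (0.89 to 0.90), and most like Acta1 were Dtx1 (0.91), Tnxb, Atp2a3, Dtnb and Esyt1 (0.86 to 0.88). The closest match to Myh7 was weaker, at 0.84 for Gapdh-ps15, followed by Neurl1b, Telo2, Slc26a7 and Fat2 (0.78 to 0.79). These values describe the 12 libraries, which share depth, sex and chamber content, and carry no test.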

How the data were processed

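The authors deposited 1 table with estimated counts per gene, which need not be whole (94.3% were, with no tolerance), and TPM per library, with columns per the file headers. It also holds the authors' log2 fold change and DESeq2 q-value of each gene in 5 pairs of groups. HISAT, Bowtie2, DESeq2 and the build GRCm38.p6 appear in the submitters' processing notes without their roles. The program that counted reads is not given in the sources. Of 17380 lines 17379 held a gene with values, and 25 symbols turned into dates were restored from gene identifiers.

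Counts were rounded and fitted with edgeR 4.0.16 (quasi-likelihood, robust, TMM scaling, minimum count 10, which left 13849 genes and removed 3530) on group and sex over all 12 libraries, with 7 residual degrees of freedom and a common biological coefficient of variation of 21.5%. P-values were adjusted by Benjamini-Hochberg over all tested genes, and called means under 0.05. CPM are TMM-scaled. Isoform ratios used TPM, so that levels are per length, with exact permutation tests. DESeq2 1.42.0 and limma-voom (limma 3.58.1) served as alternatives, and the models were tested on simulated counts. Transcript lengths and coding sequences came from GENCODE vM21, and promoter and microRNA sequences from RefSeq. Likeness used log2(CPM + 0.5).

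The members, the 15 gene lists and the tests were chosen with earlier results of these data known. Named from each list are the 2 genes with the smallest p in the comparisons with nontransgenic hearts, each given where its p is smallest, plus Mybpc3, Nppa, Nppb, Myl7, Myl4, Sln, Myl2, Thra and Med13. Named as like a member are the 5 genes with the highest correlation, leaving out predicted genes. A gene chosen by each of these rules is not reported here. The leaving out of nontransgenic replicate 2 with MYBPC3 deletion replicate 2, which are high in B-cell markers, and the DESeq2 fit of 2 groups alone were added after seeing the data.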

Additional observations from a re-analysis of the deposited data

Results flagged for a closer look

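The deletion's difference in Myh6 was not alike with and without the HRC variant by DESeq2, whose interaction was 0.65 on the log2 scale (DESeq2 adjusted p = 0.0167, adjusted over 5790 genes). By edgeR the same interaction was 0.64 (SE 0.21) with an adjusted p of 0.544, and between 0.57 and 0.71 when single libraries were left out. Myh6 differed by -0.53 between MYBPC3 deletion and nontransgenic hearts and by 0.11 between compound and HRC variant hearts. The first pair holds 2 males and 1 female per group and the second only females. A deletion effect that differs by sex and one that differs by HRC genotype cannot be told apart.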

How the results depend on the processing

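EdgeR called 0 genes in each contrast. DESeq2 on the same model called 76 for the MYBPC3 deletion against nontransgenic hearts, 25 for the HRC variant, 38 for the compound group, 6 for compound against MYBPC3 deletion, 43 for compound against HRC variant, 13 for the mean effect of the deletion and 50 for the interaction. With 2 groups alone and no sex term it called 13, 17, 457, 818 and 75 in the 5 pairs, in the same order. Without the filter on low counts the mean effect of the deletion had 1 call, and under the replicate block the interaction had 1. Leaving out single libraries gave 0 to 8 calls for the HRC variant, 0 to 3 for compound against nontransgenic, 0 to 13 for compound against HRC variant, 0 to 3 for the mean deletion effect and 0 to 5 for the interaction.

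Replicate numbers did not pair the libraries: same-numbered deviations correlated between -0.24 and 0.316, over 0.1 in 5 of 18 pairs, and 3 of 12 libraries correlated best with their own number. Under the replicate block Actc1 changed sign to 0.12 for the HRC variant and 0.13 for the compound group against nontransgenic hearts, and the permutation p of the skeletal actin ratio in HRC variant carriers was 0.0938 (adjusted 0.375). The block changed no call of a member.

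Of 725 alternative values of the members 663 kept their direction and side of the threshold, 57 changed sign and 5 became calls, all by DESeq2: Myh6 for the deletion (-0.54) and the interaction (0.65), and with 2 groups alone Acta1 for compound against nontransgenic (-1.64), Myh6 (0.48) and Myh7b (0.79) for compound against MYBPC3 deletion. Scaling by DESeq2 size factors changed no member's sign. For the MYBPC3 deletion against nontransgenic Myh7 was -0.19 without a sex term and also -0.19 by DESeq2 with 2 groups alone, -0.10 by limma-voom, -2.52 in females only and -0.69 without the pair of libraries high in B-cell markers. By limma-voom it was 0.038 for the HRC variant and 0.15 for the compound group against nontransgenic. For compound against MYBPC3 deletion it was 0.14 without a sex term, 0.25 by limma-voom, 1.52 in females only, 0.33 without the B-cell pair and 0.15 by DESeq2 with 2 groups alone. For the mean effect of the deletion it was -0.031 without a sex term, -1.19 in females only and -0.27 without the B-cell pair. In females only Acta1 was 0.20 for compound against MYBPC3 deletion, and Myh9 was 0.017 for the deletion. The beta share difference was -0.061 in percentage points for HRC variant carriers. For deletion carriers the difference in the log2 ratio of Myh7 to Myh6 was -1.05 in females only and -0.061 without the B-cell pair. The causes were not tested.

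With single libraries left out, Myh7 ranged from -0.61 to 1.12 for the MYBPC3 deletion, -1.15 to 2.52 for the HRC variant and -1.01 to 2.66 for the compound group against nontransgenic, and from -2.13 to 1.54 for compound against MYBPC3 deletion, -0.077 to 0.39 for compound against HRC variant, -0.23 to 0.63 for the mean deletion effect and -0.98 to 0.76 for the interaction. Acta1 ranged from -1.53 to 0.65 for the HRC variant and -2.02 to 0.16 for the compound group against nontransgenic, with the sign change in both without nontransgenic replicate 3. It ranged from -1.39 to -0.050 for the MYBPC3 deletion (-2.21 in females only), -0.73 to -0.099 for compound against HRC variant, -1.97 to 0.22 for compound against MYBPC3 deletion and -0.44 to 0.91 for the interaction. Myh7b ranged from -0.37 to 0.034 for the deletion, -0.38 to 0.16 for compound against HRC variant and -0.21 to 0.33 for the interaction, and Actc1 from -0.14 to 0.14 for compound against HRC variant. The log2 ratio of beta to alpha heavy chain ranged from -0.30 to 0.33 in HRC variant carriers, and that of Acta1 to Actc1 from -1.16 to -0.69. In deletion carriers the ranges were 0.0090 to 0.54 and -0.74 to -0.27, and the Acta1 to Actc1 difference was -1.25 in females only. With 3 libraries a group, 1 of them female where sexes are mixed, differences of the size of these SEs could not be told from 0.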
